A study of Mus musculus with 44 samples.

Results

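The comparison concerns nicotine in drinking water and the ribosome-bound RNA of cholinergic neurons of the mouse medial habenula. Of the 44 samples of the series, 5 were used: the ChAT immunoprecipitates (IPs) whose count files list the same gene symbols as each other, so that every library was counted against 1 gene list, and all its genes were taken. All came from adult mice (over 8 weeks old) on the B6J.Cg background carrying the single transgene ChAT-TRAP (DW167), which puts an EGFP-tagged ribosomal protein into cells that use the ChAT promoter of the transgene. Translating ribosome affinity purification (TRAP) then pulls the tagged ribosomes from microdissected medial habenula with anti-GFP beads. With nicotine there were 3 libraries: nicotine water 1 and nicotine water 2 (4 pooled animals each), and nicotine water with a saline injection 1 (3 pooled animals). These mice drank 500 mg/L nicotine tartrate in 0.2% saccharin for 6 weeks, and the injected ones received intraperitoneal saline 3 h before collection. Without nicotine there were 2 libraries: saccharin water with a saline injection 1 (4 animals, 0.2% saccharin for 6 weeks, the same injection) and saline pump 1 (3 animals with a saline osmotic minipump for 14 days, with no saccharin named, and "wt" in the library's title although the label gives the transgene). Every library is a pool, and the study states that males and females were pooled unless a label says otherwise. The design has only 1 pair matched for water, saccharin and injection, which is the injected nicotine library against the injected saccharin library.

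Neurons of the ventral medial habenula make both acetylcholine and glutamate and project through the fasciculus retroflexus to the interpeduncular nucleus. They carry nicotinic acetylcholine receptors, pentameric cation channels opened by acetylcholine and by nicotine, and the α3 and β4 subunits are characteristic of them. Nicotine also acts on receptors inside the cell, where it favours their assembly, and long exposure is known from other brain regions to raise receptor protein without a matching increase in subunit mRNA.

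The 5 libraries held 28375912 to 63251923 counts in genes, the fewest in saline pump 1. Levels are given as CPM, read counts per gene relative to the library's total, after scaling with the trimmed mean of M values (TMM), and 3 counts correspond to 0.0474 to 0.106 CPM. The libraries did not divide by nicotine alone. The first principal component, with 75.1% of the variance, put nicotine water 1 and 2 at 50.6 and 20.04 and the other 3 libraries, injected nicotine included, at -25.4 to -22.5. The names of those 3 carry library numbers 825, 829 and 852, and those of nicotine water 1 and 2 carry 1139 and 1141. Reads without a unique place made 42.2 to 47.0% of reads in the first 3 and 25.9 and 30.2% in the latter. The ribosomal RNA gene Rn45s took 7.61 to 10.8% of gene counts in the first 3 libraries and 2.39 and 3.53% in the latter. What these differences contribute to any result below was not tested.

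The target neurons were recognisable in every library. Chrna3, which encodes the α3 nicotinic subunit, stood at 1294 CPM in injected saccharin and 1321 CPM in saline pump, against 1248, 1245 and 1622 CPM in injected nicotine, nicotine water 1 and nicotine water 2. The arms overlapped, and the difference was 0.07 ± 0.17 on the log2 scale (nicotine minus no nicotine, edgeR estimate ± SE, 95% interval -0.33 to 0.47). Chat, the gene for choline acetyltransferase, which makes acetylcholine, was at 153 and 168 CPM without nicotine and at 217, 62.0 and 84.6 CPM with it, in the same order. Injected nicotine was thus the highest of the 5 libraries and nicotine water 1 the lowest, so the interval was wide (-0.40 ± 0.54, 95% interval -1.76 to 0.95). Without the injected nicotine library the difference in Chat was -1.13, past the threshold (edgeR adjusted p = 0.0150). Sst, the precursor of somatostatin, which is a peptide of many GABAergic neurons, stood near 1 CPM in 3 libraries (0.919 and 1.03 without nicotine, 1.13 in injected nicotine) and at 5.21 and 3.76 CPM in nicotine water 1 and 2. The difference was 1.79 ± 0.66 (95% interval 0.26 to 3.32, edgeR unadjusted p = 0.0273, adjusted p = 0.531). On the symbols shared by all 12 ChAT IPs and scaled over them (the 12-library scale), Sst stood at 1.24 to 5.68 CPM with nicotine. The 7 other ChAT IPs without nicotine, counted on other gene lists, held 1.86 to 10.8 CPM, all in or above that range.

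The remaining cholinergic genes shared no direction. Slc18a3, the vesicular acetylcholine transporter, stood at 557 and 1033 CPM without nicotine and at 569.8, 252 and 342 CPM with it. The difference was -1.04 ± 0.40 (unadjusted p = 0.0415, adjusted p = 0.531), but injected nicotine lay above injected saccharin, and the pair differed by 0.03. Slc5a7, the high-affinity choline transporter, lay at 312 and 316 CPM without nicotine and at 297 to 376 CPM with it (0.05 ± 0.17). Of 14 tested genes of acetylcholine synthesis, transport and breakdown, 1 had an unadjusted p under 0.05 with a higher level and 1 with a lower level (4.08% and 3.51% of all genes tested), and the median difference was -0.03. The vesicular glutamate transporter gene Slc17a7 was at 578 and 804 CPM without nicotine and at 499, 399 and 559 CPM with it, so every nicotine library lay below both controls (-0.51 ± 0.21, adjusted p = 0.531). On the 12-library scale it stood at 435 to 607 CPM with nicotine, and the other ChAT IPs without nicotine overlapped this range (463 to 739 CPM). Tac1, the substance P precursor of the dorsal medial habenula, ranged from 55.8 to 89.3 CPM without nicotine and from 54.7 to 73.8 CPM with it (-0.21 ± 0.24). Over 32 tested medial habenula marker genes, 13 had a positive and 19 a negative difference, with a median of -0.10.

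**Figure D1:**
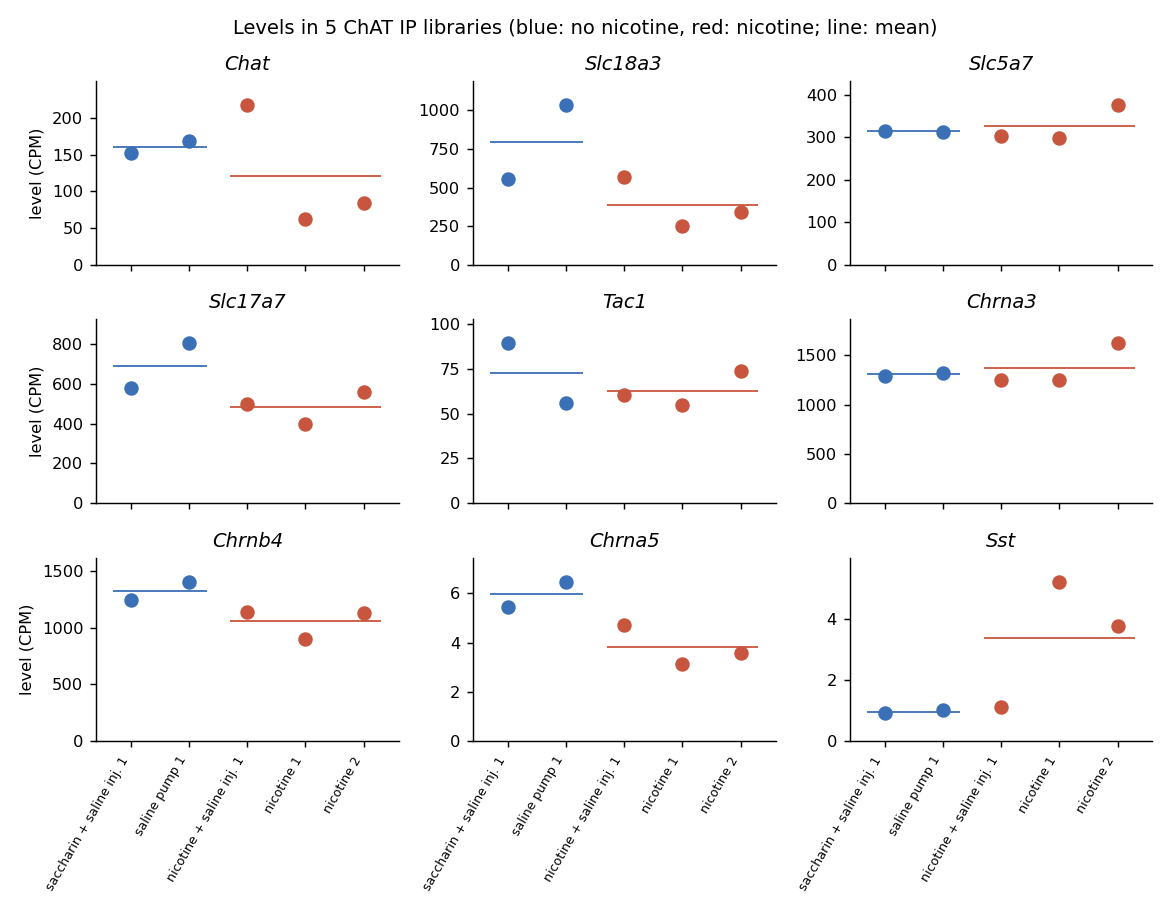
Levels in CPM (linear axes from 0) of 9 marker genes in the 5 ChAT IP libraries; each point is 1 library, blue without and red with nicotine, and the lines are arm means. Injected nicotine sits near the controls for Slc18a3 (569.8 CPM) and Sst (1.13 CPM), while nicotine water 1 and 2 sit apart from them.

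Among nicotinic receptor genes, no subunit passed the test. The genes Chrna5 (chr9:54980880-55007779, plus strand, GRCm38), Chrna3 (chr9:55010111-55026562, minus strand) and Chrnb4 (chr9:55028154-55048779, minus strand) lie side by side in GENCODE M21. Chrnb4, which encodes the β4 subunit, stood at 1239.5 and 1404 CPM without nicotine and at 1135, 900.4 and 1128 CPM with it. Each nicotine library was below both controls, by -0.33 ± 0.17 (95% interval -0.71 to 0.06, adjusted p = 0.531). Chrna5, the accessory α5 subunit gene, had the same order at low level, with 5.44 and 6.47 CPM against 4.70, 3.14 and 3.59 CPM (-0.64 ± 0.31, 95% interval -1.37 to 0.08, adjusted p = 0.531). The 7 other ChAT IPs without nicotine, counted on other gene lists, did not keep this order. On the symbols shared by all 12 ChAT IPs and scaled over them, Chrnb4 stood at 982 to 1242 CPM with nicotine and at 913 to 1528 CPM in those 7, of which 6 were in or below the nicotine range. For Chrna5, 5 of the 7 were (2.95 to 6.80 CPM against 3.42 to 5.14 CPM with nicotine). The β3 subunit gene Chrnb3 overlapped between arms (414 and 433 CPM against 341 to 434 CPM, -0.13 ± 0.16). Chrna4 and Chrnb2, which form the high-affinity receptor of many brain neurons, had differences of -0.18 ± 0.18 and 0.15 ± 0.16. For Chrna3, Chrnb4, Chrnb3, Chrna4 and Chrnb2 the 95% intervals lay within -0.71 to 0.52 on the log2 scale. Over the 10 subunit genes tested of 16 listed, 5 differences were positive and 5 negative, with a median of -0.01, and 0 had an unadjusted p under 0.05 in edgeR. Over all 16181 genes tested the median was 0.02.

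Some genes for proteins that assemble or tune these receptors lay lower in every nicotine library. Ly6h, whose product limits nicotinic receptors at the cell surface, stood at 11.3 and 19.9 CPM without nicotine and at 9.42, 7.91 and 8.76 CPM with it (-0.84 ± 0.28, unadjusted p = 0.0177, adjusted p = 0.531). Ly6e, of the same protein family, stood at 138 and 188 CPM against 121, 79.2 and 109 CPM (-0.66 ± 0.23, unadjusted p = 0.0195, adjusted p = 0.531). Lynx1, a membrane-anchored brake on the receptors, was at 284 and 379 CPM against 274, 263 and 252 CPM (-0.33 ± 0.17). Tmem35, which encodes the assembly chaperone NACHO, was at 80.5 and 82.8 CPM against 70.4, 59.6 and 61.4 CPM (-0.36 ± 0.16). In all 4 of these genes each nicotine library lay below both controls. The other ChAT IPs without nicotine did not keep this order for Ly6h, Ly6e and Tmem35, and most lay in or below the nicotine range. On the 12-library scale they spanned 6.41 to 18.2, 69.8 to 163 and 34.7 to 79.9 CPM. With nicotine the ranges were 8.63 to 10.3, 86.4 to 133 and 65.0 to 77.0 CPM. Ric3, another assembly chaperone, did not share this order (110.2 and 110.4 CPM against 106 to 125 CPM, 0.09 ± 0.16). Of 14 such genes tested, 6 differences were positive and 8 negative (median -0.07), 2 had an unadjusted p under 0.05, both lower (3.51% of all genes tested), and 5 had arms apart on the lower side (14.3% of all).

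Across all genes the fit made no call. Of 16181 genes tested, 0 (0%) passed an adjusted p of 0.05 in edgeR, and the smallest adjusted p was 0.531. DESeq2 and limma-voom also called 0. At an unadjusted p under 0.05 edgeR had 1228 genes, 660 higher with nicotine (4.08%) and 568 lower (3.51%), and limma-voom had 928 of the same 16181. DESeq2, run without the count filter, had 2015 of 22327 genes. The arms did not overlap in 2292 genes with nicotine higher (14.2%) and in 2312 with nicotine lower (14.3%). The median absolute difference was 0.32 on the log2 scale, and the median width from the estimate to its 95% bound was 0.64. That width was 0.41 for genes over 100 CPM and 2.32 for genes under 1 CPM, and it was under 1 (2-fold) for 10834 genes. These widths are unadjusted, and with 2 against 3 pools and 3 residual degrees of freedom differences beyond them were not called either. Of the 1228 genes at an unadjusted p under 0.05 in edgeR, 0 passed after adjustment. The absence of calls therefore does not show that differences of this size are absent.

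The genes with the smallest p-values at 5 CPM or more, predicted genes left out, are given as a description, since none was called (adjusted p = 0.531 for each). In all of them the arms were apart. Leo1, a subunit of the PAF1 transcription elongation complex, stood at 35.7 and 33.9 CPM without nicotine and at 51.1, 72.9 and 70.7 CPM with it (0.90 ± 0.21). F2r, the thrombin receptor PAR1, stood at 10.1 and 7.87 CPM against 17.3, 20.3 and 14.2 CPM (0.94 ± 0.25). Igip was at 26.7 and 24.6 CPM against 35.5, 61.4 and 48.7 CPM (0.92 ± 0.25). In Leo1 and Igip injected nicotine was the nicotine library nearest to the controls. Others of the 12 with higher levels encode proteins of ribosome assembly (Mphosph10, 0.74 ± 0.20; Utp3, 0.68 ± 0.18; Esf1, 0.73 ± 0.20) and of RNA splicing or decay (Prpf38b, 0.65 ± 0.16; Skiv2l2, 0.75 ± 0.20). The rest were Bclaf1 (0.61 ± 0.15), the myosin phosphatase subunit gene Ppp1r12a (0.75 ± 0.19), the kinase-anchoring protein gene Akap13 (0.86 ± 0.23) and the chaperone gene Hspa4 (0.80 ± 0.22).

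On the lower side, Il34, a cytokine that neurons make and that acts on the microglial receptor CSF1R, had the smallest p of all genes (0.00196). It stood at 10.1 and 12.8 CPM without nicotine and at 5.96, 4.24 and 3.95 CPM with it (-1.28 ± 0.28, 95% interval -1.93 to -0.63). Tmem147 stood at 31.6 and 51.4 CPM against 21.9, 17.5 and 15.2 CPM (-1.19 ± 0.26). Emc6, of the complex that inserts membrane proteins at the endoplasmic reticulum (ER), was at 45.4 and 49.1 CPM against 32.7, 21.5 and 22.6 CPM (-0.88 ± 0.22). Gaa, the lysosomal acid α-glucosidase, was at 226 and 295 CPM against 171, 167 and 171 CPM (-0.62 ± 0.17), and here the 3 nicotine libraries lay together. Gde1, a glycerophosphodiester phosphodiesterase gene, was at 62.7 and 68.3 CPM against 46.1, 25.6 and 29.996 CPM (-0.95 ± 0.26). The other 7 were Med11, Ext2, Tmem192, Cant1, Fastk, Prr13 and Mpdu1, with differences from -1.05 to -0.66.

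**Figure D2:**
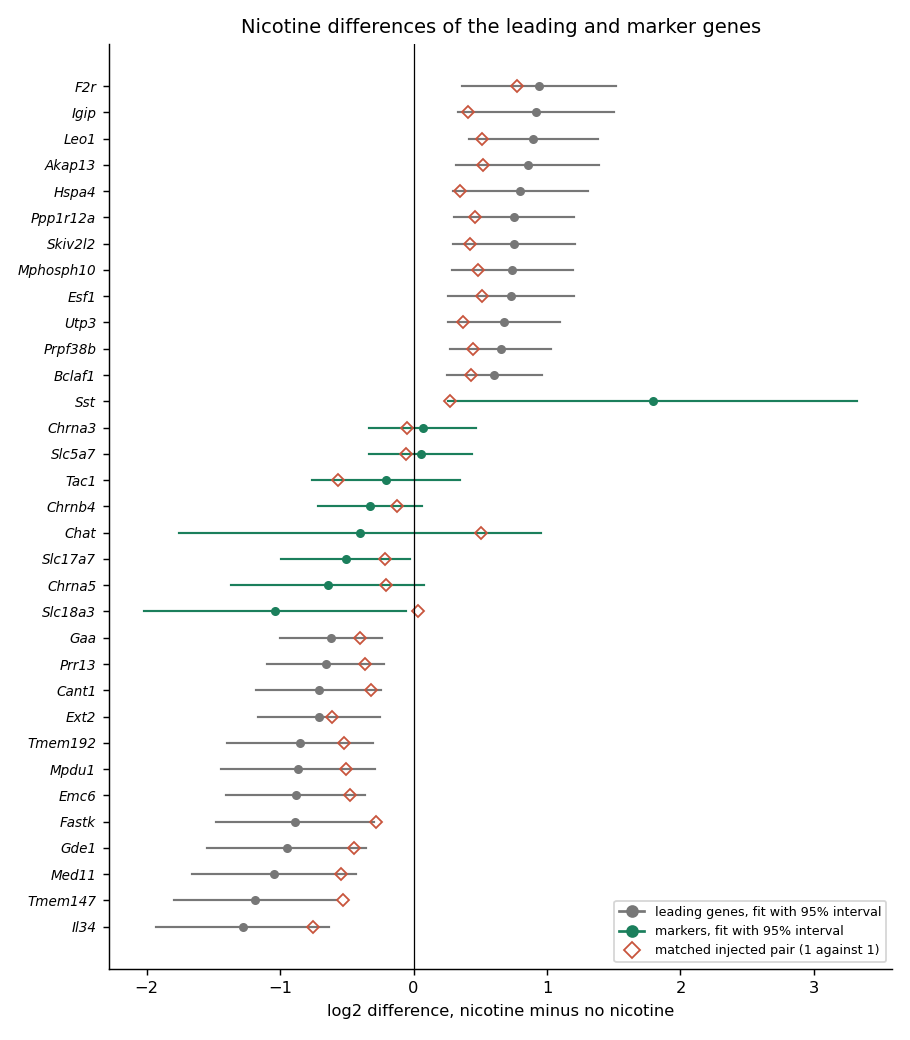
Log2 differences (nicotine minus no nicotine) from the 5-library fit with 95% intervals for the 24 leading genes (grey) and the 9 marker genes (green), and the log2 ratio of the single matched injected pair (open red diamonds). The 24 genes were chosen for the smallest p, and in all of them the arms did not overlap, which fixes the side of 0 on which the pair lies. In Chat the pair (0.51) lies on the other side from the fit (-0.40).

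Differences of chaperone genes were mostly positive. Of 20 tested genes of heat shock and cytosolic chaperones, 15 differences were positive and 5 negative, with a median of 0.41, and 7 had an unadjusted p under 0.05, all higher and all with arms apart (background 4.08% and 14.2%). Hsp90aa1, the inducible cytosolic HSP90, stood at 235 and 139 CPM without nicotine and at 278, 464 and 377 CPM with it (0.99 ± 0.30, unadjusted p = 0.0118). Hspa4, an HSP110 family member that recharges HSP70, stood at 366 and 270.2 CPM against 465, 671 and 525 CPM. Stip1, which links HSP70 to HSP90, stood at 161 and 124 CPM against 205, 219 and 209 CPM (0.56 ± 0.17). In these genes saline pump was the lowest library. Hsph1 (0.58 ± 0.18), Dnaja1 (0.59 ± 0.18) and Hspa4l (0.55 ± 0.21) had the same order of arms, and Hspa8, the constitutive HSP70, did not (0.04 ± 0.20). The adjusted p was 0.531 for Hsp90aa1, Hspa4, Stip1, Hsph1, Dnaja1 and Hspa4l. The list's median in the matched injected pair was 0.25. Summed levels were 4245 and 3361 CPM without nicotine and 5125, 5396 and 4483 CPM with it. On the 12-library scale the 3 nicotine libraries summed to 5611, 5890 and 4871 CPM in the same order, baseline 1 without nicotine to 6012 CPM, above all 3, and baseline 4 and saccharin water 1 to 5395 and 5030 CPM, above nicotine water 2.

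In the ER, the chaperone gene Hspa5 (BiP) stood at 192 and 143 CPM without nicotine and at 241, 286 and 239.5 CPM with it (0.61 ± 0.19, unadjusted p = 0.0121). Atf4, a transcription factor of the integrated stress response, lay the other way, at 183 and 273 CPM against 163, 123 and 147 CPM (-0.66 ± 0.21, unadjusted p = 0.0156). Both had an adjusted p of 0.531. Over 29 tested genes of the unfolded protein response, 12 differences were positive and 17 negative, with a median of -0.03.

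The 7 other ChAT IPs also widened the control range of single chaperone genes. On the 12-library scale, Hspa4 stood at 509 to 732 CPM with nicotine and at 408 to 821 CPM in those 7 controls, of which 3 reached the nicotine range. Hsp90aa1 stood at 305 to 507 CPM with nicotine and at 157 to 438 CPM in those controls, again with 3 in the range. Hspa5 stood at 260.2 to 312 CPM with nicotine and at 189 to 261 CPM in them, with 1 in the range. Of the 24 leading genes, 23 are on the shared symbols, and in 22 of them at least 1 of the 7 controls lay in or past the nicotine range (median 4 of 7). The exception was Gde1, at 27.9 to 50.4 CPM with nicotine and 55.6 to 98.3 CPM in the 7 controls. Over 14538 genes, the arms of all 12 libraries did not overlap in 31 with nicotine higher (0.213%) and in 53 with nicotine lower (0.365%). In the same genes and on the same scale, the 5 libraries alone had 2164 and 1991. Adding controls can only lower such counts, so they cannot be set against each other.

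Activity-regulated genes gave no common direction. Egr1, an immediate early transcription factor, stood at 102 and 157 CPM without nicotine and at 71.6, 71.8 and 39.4 CPM with it (-1.08 ± 0.31, unadjusted p = 0.00949, adjusted p = 0.531). The uninjected saccharin libraries, which were counted on another list, lay at 53.1 and 56.9 CPM on the 12-library scale, inside its nicotine range of 42.8 to 78.4 CPM. Fos overlapped (8.78 and 11.5 CPM against 6.32, 15.95 and 5.81 CPM, -0.12 ± 0.47), as did Nr4a1 (-0.19 ± 0.26). Homer1, a synaptic scaffold gene, lay higher in each nicotine library (24.9 and 19.2 CPM against 29.4, 30.2 and 32.2 CPM, 0.47 ± 0.20, adjusted p = 0.531). Of 38 tested genes, 16 differences were positive and 22 negative (median -0.14), and at an unadjusted p under 0.05 there were 2 higher and 1 lower (4.08% and 3.51% of all genes tested).

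Genes of transmitter and peptide release had differences of both signs, and none passed the test. Snap25, a SNARE protein of vesicle fusion, stood at 7087 and 6161 CPM without nicotine and at 7589, 9406 and 10142 CPM with it (0.45 ± 0.18). Rab3a, a vesicle GTPase gene, stood at 574 and 762 CPM against 566, 322 and 374 CPM (-0.67 ± 0.26), with injected nicotine beside injected saccharin. Of 42 synaptic vesicle genes tested, 29 differences were positive and 13 negative, with a median of 0.11. Among peptide genes, Cartpt was at 17.9 and 17.98 CPM against 12.0, 8.33 and 10.9 CPM (-0.78 ± 0.23, unadjusted p = 0.00974). Chgb, a granule protein gene, was at 299 and 291 CPM against 346, 578 and 491 CPM (0.68 ± 0.23). Pam, the enzyme that amidates peptides, was at 303 and 362 CPM against 271, 194 and 225 CPM (-0.53 ± 0.19). Each of these genes had an adjusted p of 0.531. On the 12-library scale, each overlapped between nicotine and the other ChAT IPs without nicotine. With nicotine, Snap25, Chgb and Pam stood at 8307 to 11016, 378 to 631 and 211 to 297 CPM. In those other ChAT IPs they stood at 7538 to 11028, 434 to 552 and 217 to 417 CPM.

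Among receptors and channels, Gabbr1, the GABA-B subunit that binds GABA, stood at 5350.1 and 6949 CPM without nicotine and at 4733, 3793 and 4719 CPM with it (-0.48 ± 0.18, adjusted p = 0.531). Its partner gene Gabbr2 had a difference of 0.00 ± 0.17. Of 45 GABA and glutamate receptor genes tested, 35 differences were positive, with a median of 0.64 that the matched pair did not share (-0.07). Gabrq, for instance, was at 0.777 and 0.147 CPM without nicotine, 0.741 CPM in injected nicotine, and 7.68 and 2.66 CPM in nicotine water 1 and 2. Hcn4, a pacemaker channel gene, was at 66.3 and 114 CPM against 57.2 to 66.9 CPM (-0.54 ± 0.24). Of 75 voltage-gated and pacemaker channel genes tested, 54 differences were positive and 21 negative (median 0.20), against a median of -0.09 in the matched pair.

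Markers of other cells also differed between libraries, and most of their lists summed highest in nicotine water 1. All 16 astrocyte markers tested had positive differences (median 1.69), and their summed level was 177 and 206 CPM without nicotine, 152 CPM in injected nicotine, 1243 CPM in nicotine water 1 and 407 CPM in nicotine water 2. Aqp4, the astrocyte water channel, stood at 3.87 and 4.16 CPM without nicotine and at 3.66, 48.6 and 12.4 CPM with it. Oligodendrocyte markers (16 of 18 positive) summed to 151 and 188 CPM against 123, 1039.6 and 357 CPM. GABAergic neuron markers (6 of 8 tested positive) summed to 38.4 and 23.5 CPM against 28.1, 194 and 77.2 CPM, and Gad2, an enzyme of GABA synthesis, stood at 17.6 CPM in injected nicotine against 133 and 52.5 CPM in the others. Microglial markers (14 of 16 positive) summed to 12.0 and 12.8 CPM against 8.44, 33.4 and 13.2 CPM, with Trem2 and Cd68 at 0 in saline pump and Siglech and Laptm5 at 0 in injected nicotine. No astrocyte or oligodendrocyte marker tested was at 0 in any library. Endothelial and mural markers (16 of 18 positive) summed to 18.2 and 16.3 CPM against 19.4, 60.9 and 33.5 CPM, with Kdr, Tek, Slco1a4, Kcnj8 and Myh11 at 0 in saline pump and Cdh5 and Abcb1a at 0 in injected nicotine. Oligodendrocyte precursor markers (9 of 10 positive) summed to 217 and 215 CPM against 209, 307 and 244 CPM, and lateral habenula, thalamic and hippocampal markers (18 of 22 positive) to 2261 and 2644 CPM against 2437, 3912 and 3015 CPM. Choroid plexus and ependymal markers (11 of 14 positive) summed to 104 and 81.4 CPM against 122, 94.5 and 112 CPM, with Aqp1, Kcnj13 and Rarres2 at 0 in saline pump, and 2 tested blood markers to under 2 CPM in every library. In IPs of pooled tissue, RNA carried along from untagged cells, the number of such cells and their RNA content cannot be told apart. The part of these markers in the nicotine differences was not tested.

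Summed levels of genes of energy and protein metabolism were lower in nicotine water 1 and 2 than in the other 3 libraries, injected nicotine included. Nuclear-encoded genes of oxidative phosphorylation summed to 20153 and 19037 CPM without nicotine, to 19299.5 CPM in injected nicotine, and to 11851 and 13145 CPM in nicotine water 1 and 2. Of 77 such genes tested, 70 differences were negative (median -0.55), 16 had an unadjusted p under 0.05 on the lower side (background 3.51%) and 34 had arms apart on that side (background 14.3%). Ndufs7, a complex I subunit gene, stood at 221 and 278 CPM against 204, 109 and 149 CPM (-0.69 ± 0.26), and Atp5h, an ATP synthase subunit gene, at 111 and 118 CPM against 94.6, 57.3 and 69.7 CPM (-0.63 ± 0.22). Ribosomal protein genes, many of which have near-identical pseudogenes, had 73 of 79 negative differences (median -0.54), and their sums were 3968 and 3453 CPM against 3563, 2153 and 2648 CPM. Proteasome subunit genes had 34 of 37 negative (median -0.27), with Psmb5, a catalytic subunit, at 36.1 and 40.3 CPM against 28.5, 18.3 and 20.9 CPM (-0.76 ± 0.23). Replication-dependent histone genes, whose mRNAs lack a poly(A) tail, had 20 of 23 negative (median -0.81) and summed to 337 and 546 CPM without nicotine, 421 CPM in injected nicotine, and 80.0 and 131 CPM in the others. The medians in the matched injected pair were -0.17 for oxidative phosphorylation, -0.14 for ribosomal proteins, -0.03 for the proteasome and 0.20 for histones. Each named gene had an adjusted p of 0.531.

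The uninjected saccharin libraries, which had no nicotine, lay with nicotine water 1 and 2 in these sums. On the 12-library scale, the oxidative phosphorylation genes summed to 14254 and 14701 CPM in saccharin water 1 and 2, close to 12935 and 14281 CPM in nicotine water 1 and 2, and to 20403 to 21892 CPM in the 3 other libraries. Histone genes summed to 107 and 134 CPM in uninjected saccharin, 87.3 and 142 CPM in uninjected nicotine, and 367 to 585 CPM in the 3 others. Chat was at 84.2 and 78.7 CPM in uninjected saccharin, 67.6 and 91.9 CPM in uninjected nicotine, and 166 to 238 CPM in the 3 others. The astrocyte sum was 437 and 549.8 CPM in uninjected saccharin. These saccharin libraries carry numbers 1138 and 1140 and were counted on the list of 37328 symbols. The remaining ChAT IPs without nicotine did not all follow 1 side. Baseline 1 lay with the uninjected libraries, at 13140.5 CPM for oxidative phosphorylation, 149 CPM for histones and 1270.3 CPM for astrocyte markers. Baseline 2 to 4 and injected saccharin 2 summed to 18283 to 19107 CPM for oxidative phosphorylation and 276 to 377 CPM for histones. Chat stood at 85.4 CPM in injected saccharin 2, beside the uninjected libraries, and at 97.3 to 163 CPM in baseline 1 to 4, between the sides.

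**Figure D3:**
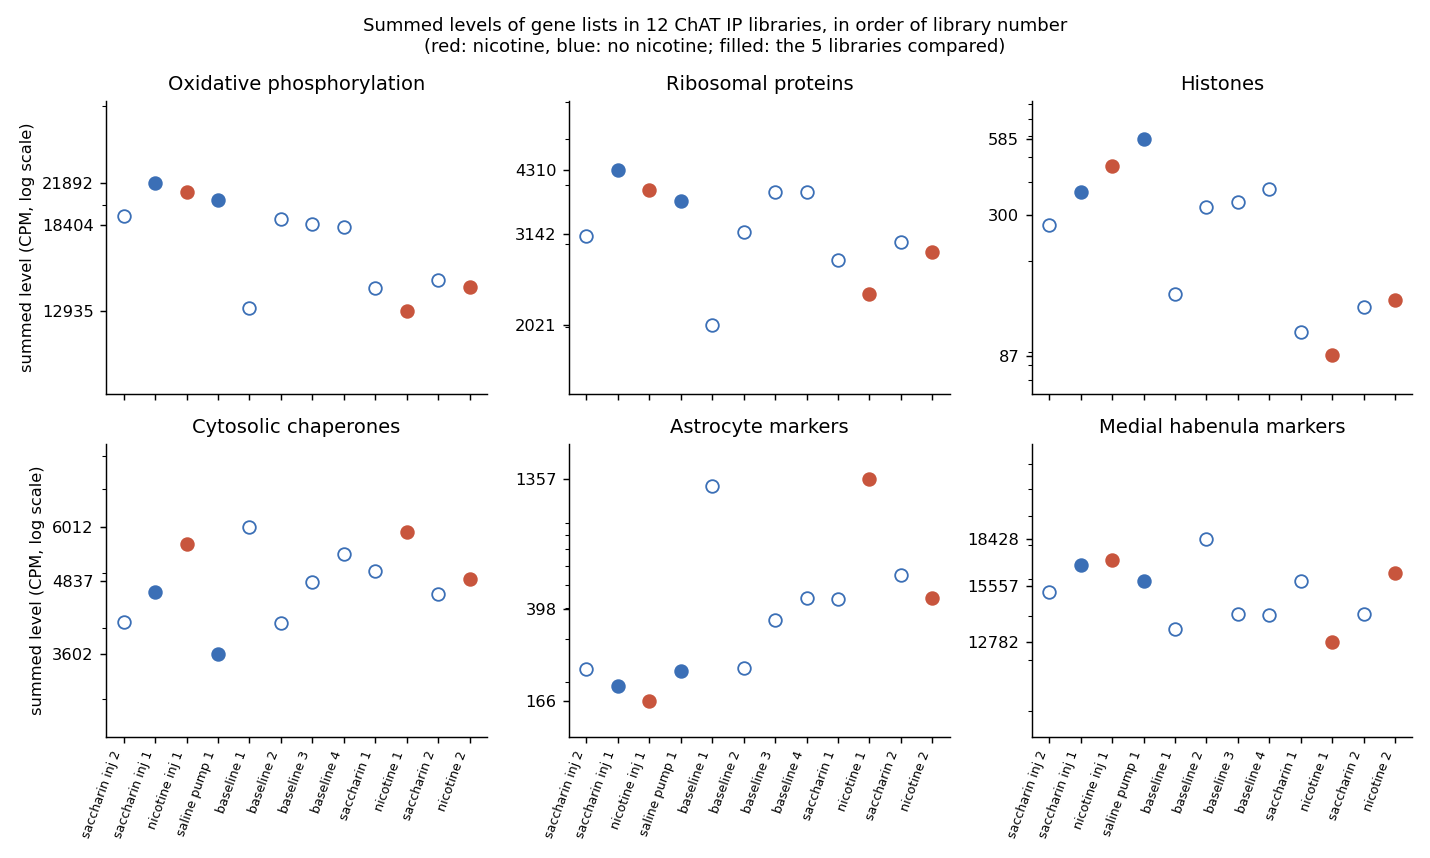
Summed levels in CPM (log axes, with the lowest, median and highest value marked) of 6 gene lists in the 12 ChAT IPs on shared symbols, ordered by library number; red with and blue without nicotine, filled for the 5 libraries compared. Uninjected saccharin lies beside uninjected nicotine for oxidative phosphorylation (14254 and 14701 against 12935 and 14281 CPM), and injected nicotine lies beside the 2 controls.

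Differences also varied with transcript length. Exonic length in GENCODE M21 was known for 9913 of the 10476 genes at 5 CPM or more (94.6%). With these genes in 4 equal classes from the shortest to the longest, the median difference between arms was -0.25, -0.08, 0.02 and 0.17. For uninjected nicotine alone against the 2 controls the medians were -0.37 in the shortest and 0.20 in the longest class. They were -0.04 and 0.06 in the matched injected pair, and -0.06 and 0.08 for uninjected nicotine against uninjected saccharin. Whether length accounts for the lower levels of the short oxidative phosphorylation, ribosomal and histone genes was not tested.

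Of the 10 pairs among the 5 libraries, the closest was the one that crosses the arms with injection and saccharin matched. Injected nicotine and injected saccharin had a median absolute log2 ratio of 0.12 over the 10476 genes, with 15 genes at least 2-fold apart. The 2 controls had 0.22, nicotine water 1 and 2 had 0.21, and injected nicotine against nicotine water 1 and 2 had 0.33 and 0.26. Over 14752 genes with at least 10 counts in both, 277 (1.88%) differed by at least 2-fold in the matched pair, with no replicate behind either value. At 30 counts or more in both, 85 did. The pair gave Hspa4 0.35, Il34 -0.76, F2r 0.77, Egr1 -0.51, Chrnb4 -0.13 and Chrna3 -0.05 on the log2 scale. Ttr, the transthyretin gene of choroid plexus, stood at 0.212 CPM in injected saccharin and at 4.78 CPM in injected nicotine, the highest of the 5 libraries. The largest ratios at 5 CPM or more, named after their values were seen, were Samd11 (6.02 and 13.6 CPM), the Y-linked genes Eif2s3y (5.02 and 11.3 CPM) and Ddx3y (27.7 and 56.2 CPM), and, on the lower side, Xist (2.01 and 0.270 CPM), X57780 (6.52 and 2.06 CPM), GU332589 (2.79 and 0.893 CPM), Dock1 (1.66 and 0.522 CPM) and the potassium channel gene Kcna1 (21.5 and 8.96 CPM). The floor of 5 CPM is on the mean of the 5 libraries. Xist, made from the inactive X chromosome, stood at 0.405 CPM in saline pump and at 42.6 and 9.22 CPM in nicotine water 1 and 2. The Y-linked genes Ddx3y and Uty were highest in injected nicotine (56.2 and 13.1 CPM), where Xist was lowest. They were lowest in nicotine water 1 (18.5 and 6.58 CPM), where Xist was highest. The order was not opposite throughout, since Ddx3y and Eif2s3y stood at 30.9 and 10.1 CPM in nicotine water 2, both above injected saccharin. Eif2s3y and Kdm5d were lowest in injected saccharin (5.02 and 8.92 CPM). The part of sex in these differences was not tested.

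**Figure D4:**
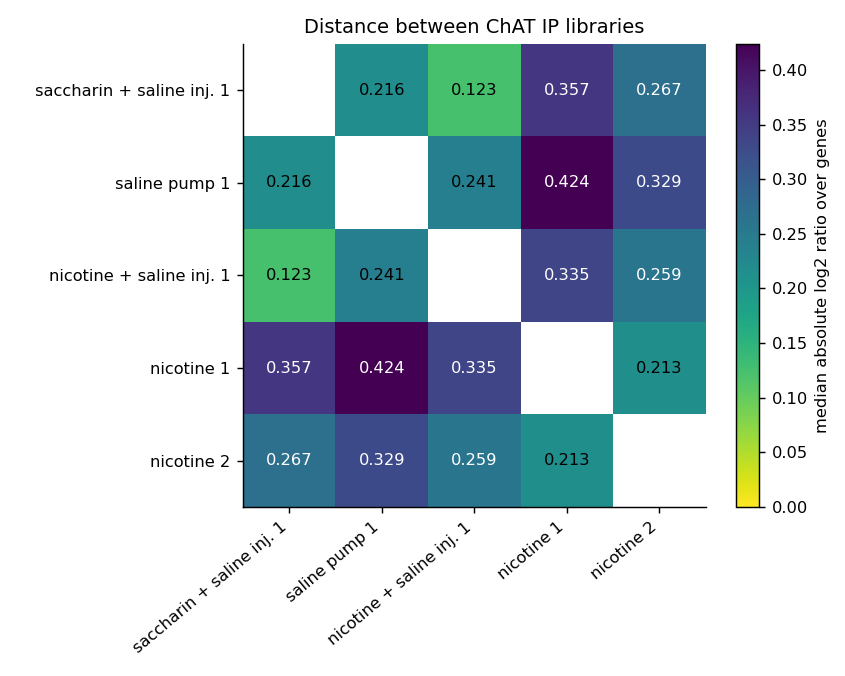
Median absolute log2 ratio over 10476 genes for each of the 10 pairs of libraries. The smallest value, 0.123, is between the injected nicotine and the injected saccharin library, and the largest, 0.424, between saline pump and nicotine water 1.

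The count of calls turned on the injected nicotine library. Without it, nicotine water 1 and 2 against the same 2 controls gave 1483 calls in 15972 genes, 726 higher (4.55%) and 757 lower (4.74%). Chat (-1.13, adjusted p = 0.0150), Hspa4 (0.91, adjusted p = 0.0281), Leo1 (1.04, adjusted p = 0.0150), Il34 (-1.48, adjusted p = 0.0196) and Gde1 (-1.24, adjusted p = 0.0139) were among them, and Chrna3 (0.13, adjusted p = 0.684) and Chrnb4 (-0.38, adjusted p = 0.194) were not. In that comparison nicotine coincides with library number, and nicotine and whatever the numbers stand for cannot be told apart. The libraries left out of it could be placed by their levels of the called genes. Injected nicotine was nearer to the mean of the 2 controls than to that of nicotine water 1 and 2 in 1416 of the 1483 genes (95.5%). Of the 1385 called genes on the shared symbols, the uninjected saccharin libraries 1 and 2 were nearer to the nicotine libraries in 1237 and 1274. Baseline 1 was nearer to nicotine in 1300, and baseline 2 to 4 and injected saccharin 2 were nearer to the controls in 873 to 1086.

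**Figure D5:**
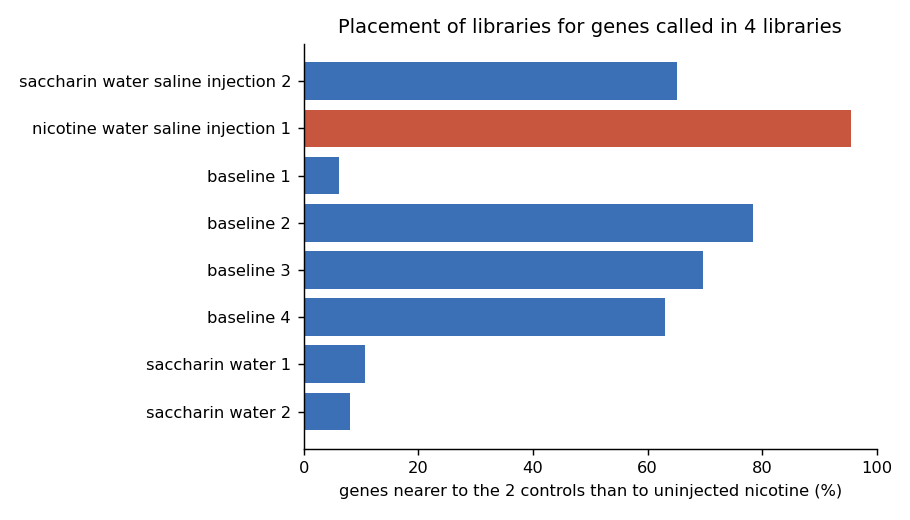
Share (%) of the genes called without the injected nicotine library in which each library outside that fit is nearer to the mean of the 2 controls than to that of nicotine water 1 and 2; 1483 genes for injected nicotine (red) and 1385 shared genes for the 7 libraries without nicotine (blue). Injected nicotine is nearer to the controls in 95.5%, and saccharin water 1 and 2 are so in 10.7% and 8.01%.

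With a term for library number (825 to 852, or 1139 and 1141), chosen after the data were seen, 0 genes were called and 237 had an unadjusted p under 0.05. Within numbers 825 to 852 alone, the injected nicotine library against the 2 controls gave 11 calls of 15964 genes, 5 higher (0.0313%) and 6 lower (0.0376%), with 1 library in the nicotine arm, which is assumed to vary like the 2 controls. They were named after their values were seen: Ttr (5.05 ± 0.75), Samd11 (1.52 ± 0.36), AK042811, Gm11762 and 4930480K23Rik were higher, and Kcna1 (-1.47 ± 0.32), St6galnac1, Ptrf, AA465934, BC018473 and X57780 lower. The numbers 1139 and 1141 hold nicotine only and give no comparison of their own. All 12 ChAT IPs with a term for the gene list gave 0 calls in 14893 genes, and 0 with a further term for library number. All nicotine libraries are on the same list, so with the list term alone the arms were compared within the 5 libraries only. The other ChAT IPs entered the scaling and the estimate of the spread there, and did not serve as added controls. Uninjected nicotine against uninjected saccharin, 2 against 2, gave 971 calls in 14658 genes, 383 higher (2.61%) and 588 lower (4.01%), but there the gene list changes with the arm. Its leading differences were of several log2 units in single genes, such as Snrpn (-8.68 ± 0.21) and Gnas (7.41 ± 0.18). Chrna3, Chrnb4 and Chat were not among its calls, and Gde1 was (-1.43, adjusted p = 0.000547).

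The interpeduncular lines of the same series were counted on the same list of symbols, and the difference between arms was compared between lines in 1 fit of 18 libraries (16669 genes). Against the Amigo1 line, whose 3 nicotine libraries are also of nicotine water and whose 3 controls have no saccharin in their labels, the difference was higher in ChAT for 1358 genes (8.15%) and lower for 229 (1.37%). Amigo1 had 4422 calls of its own in this fit and ChAT had 0, and in 1195 of the 1587 genes the Amigo1 mean was under 0.5 CPM in one arm. The Amigo1 nicotine libraries carry higher library numbers than its controls, so nicotine and a difference in how those libraries were made or counted cannot be told apart in these calls. The count was 246 without saline pump, 355 without injected saccharin and 1046 without nicotine water 1. Peg13, an imprinted noncoding RNA, illustrates the lower side, at 428 and 2199 CPM in Amigo1 without and with nicotine and at 422 and 439.6 CPM in ChAT. Against the Epyc line, whose nicotine came from a pump (24 mg/kg per day, 2 libraries, against 5 controls), 0 genes differed (0%) by edgeR, with 473 at an unadjusted p under 0.05, and Epyc had 0 calls of its own.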

How the data were processed

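Ribosome-bound RNA of 5 medial habenula ChAT pools was compared, 3 with and 2 without nicotine. Each library's deposited file holds raw counts by gene symbol. The submitters' processing notes name STAR 2.3.0e, HTSeq, DESeq2 and the mm10 build; for the settings, strand and molecular identifiers, no source used here gives them. The labels' protocols name amplified (SPIA) cDNA, so floors of 3 counts cover counting error only. The intervals also hold the estimated spread between libraries. For edgeR the SE was worked back from the log2 difference and its F statistic. Its intervals used the total degrees of freedom of the test, which include those borrowed across genes. Overlapping or antisense genes and near-identical copies may share reads. The 15 mitochondrially encoded genes listed were not analysed here. Reads in no gene, ambiguous or not unique stayed out of library sizes.

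Here, edgeR 4.0.16 (R 4.3.3) was run on the counts of every listed gene: scaling by TMM, a filterByExpr minimum of 10 counts (16181 genes kept), robust quasi-likelihood testing, Benjamini-Hochberg adjusted p-values over the kept genes, and a threshold of 0.05 for a call. Ratios of single libraries used CPM with 0.1 added. DESeq2 1.42.0, limma 3.58.1, other scalings, filters, each library left out, and terms for injection and gene list were alternatives. The script was tested on simulated data. The p-values measure the spread between pools within an arm, which may be partly technical. Pools of the control arm also differ in injection, pump and saccharin, and those of the nicotine arm in injection and range of library numbers. The samples, gene lists and alternatives were chosen with earlier results of these data known. Named genes were the 12 per direction with the smallest p among genes of 5 CPM or more (standing in for called genes, of which there were none). Names of the Gm, Rik, AK, BC, LOC, Mir and Snor kinds were left out there. Also named were 9 markers, and up to 4 per gene list and 6 per direction and line difference with the smallest p. Other genes named were chosen for their role or, where said, after their values were seen. Positions are from GENCODE M21 (GRCm38, the same build as mm10). Figures used matplotlib 3.10.9. Some results are not reported here.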

Additional observations from a re-analysis of the deposited data

Results flagged for a closer look

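The ChAT and Amigo1 groups held 2 or 3 libraries, too few to mark 1 library as far from its group, and no gene level of the 5 Epyc controls is reported. A difference between lines was called for the contrast of nicotine with no nicotine (ChAT minus Amigo1, log2, edgeR estimate ± SE over 18 libraries) of the following genes. On the higher side, Fam13c (8.06 ± 0.88, adjusted p = 0.000364) had mean levels of 24.2 and 25.5 CPM in ChAT without and with nicotine and 24.5 and 0.0911 CPM in Amigo1. Ppp1ca (6.11 ± 0.69, adjusted p = 0.000364), a catalytic subunit of protein phosphatase 1, had 182 and 118 CPM in ChAT and 85.5 and 0.832 CPM in Amigo1. H2-D1 (11.67 ± 1.19), Gpr108 (11.35 ± 1.21), Ptges2 (11.86 ± 1.27) and Coro1a (12.30 ± 1.37) were at 0 in all 3 Amigo1 nicotine libraries, so their fitted values depend on the prior count and are no bounds. H2-D1, a class I histocompatibility gene, had 25.5 and 25.1 CPM in ChAT and 13.1 CPM in the Amigo1 controls.

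On the lower side, Peg13 (-2.30 ± 0.29, adjusted p = 0.000548), Fam155a (-2.85 ± 0.41), Cdr1 (-4.47 ± 0.67), Ensa (-1.91 ± 0.29), Cmip (-1.42 ± 0.22) and Preb (-3.01 ± 0.48) were called, with adjusted p up to 0.00163. Fam155a had 118 and 118 CPM in ChAT and 109 and 785 CPM in Amigo1, and Preb had 80.3 and 49.7 CPM in ChAT and 42.5 and 212 CPM in Amigo1. None of the 12 genes was called in ChAT itself in this fit. In Amigo1, nicotine and a difference in how its libraries were made or counted cannot be told apart.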

How the results depend on the processing

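The count of 0 calls held under both other scalings, both count filters, DESeq2, limma-voom, a term for injection, shared symbols and all 12 ChAT IPs with a term for the gene list. With that term the arms were still compared only within the list that holds the nicotine libraries. Leaving out 1 library gave 0 to 1483 calls, the latter without injected nicotine, and 84 (without saline pump) to 4489 genes at an unadjusted p under 0.05. Uninjected nicotine against uninjected saccharin gave 971 calls and library numbers 825 to 852 alone gave 11; the cause was not tested. Of 138 named genes, 75 were called without injected nicotine, against 4.55% higher and 4.74% lower over all 15972 genes of that fit. Many named genes were picked for a small p in a fit that held the same libraries, so their share cannot be set against that of all genes. Signs changed in 25 of 141 with a term for library number, 24 of 139 within the low numbers, 20 of 136 against uninjected saccharin, 15 of 140 in 12 libraries with terms for gene list and library number, and at most 3 elsewhere. The ChAT and Amigo1 difference had 398 calls with only these lines and 246 to 1297 without 1 ChAT library, against 1587. The Epyc difference had 1 with only these lines. The matched pair had 85 genes 2-fold apart at 30 counts or more, against 277 at 10.

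No paired analysis was possible because the groups compared share fewer than 2 replicate numbers. At low depth the intervals were widest, with a median half-width of 2.32 on the log2 scale under 1 CPM.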

Other observations

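Genes of pathways linked to nicotine intake in the habenula gave no call. Tcf7l2, a transcription factor tied to nicotine aversion, stood at 1147 and 1397 CPM without nicotine and at 1299, 1218 and 1312 CPM with it (log2 difference 0.01 ± 0.16, 95% interval -0.35 to 0.36). Glp1r, the GLP-1 receptor gene, was at or under 0.823 CPM in every library. Of 35 genes of cAMP, CREB, GLP-1 and Tcf7l2 signalling tested, 22 differences were positive (median 0.07), and of 35 calcium signalling genes 22 were positive (median 0.12). In both lists 0 genes had an unadjusted p under 0.05 in edgeR. Of 18 circadian clock genes 12 were positive (median 0.06), and of 18 glucocorticoid and stress genes 14 were (median 0.41), among them Cdkn1a (1.24 and 1.80 CPM against 2.32, 6.16 and 3.64 CPM, 1.42 ± 0.51, adjusted p = 0.531) and Mt1 on the other side (92.0 and 91.6 CPM against 78.8, 37.3 and 47.9 CPM, -0.75 ± 0.30).

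A few genes kept nicotine and control apart in all 12 ChAT IPs. They were picked after their values were seen and none was called. Genes apart in this way made 0.213% (nicotine higher) and 0.365% (nicotine lower) of 14538. Shares of this size can arise from the group sizes alone. Gnptg, of the mannose 6-phosphate tagging enzyme of lysosomal proteins, stood at 22.2 to 28.7 CPM with nicotine and at 31.6 to 43.8 CPM in the 9 libraries without (5-library difference -0.59 ± 0.21, adjusted p = 0.531). Copz1, a coat protein gene of Golgi vesicles, stood at 50.6 to 77.7 CPM against 82.6 to 132 CPM (-0.71 ± 0.24). Cd2ap stood at 27.3 to 29.6 CPM against 20.2 to 26.2 CPM (0.44 ± 0.18). All 3 nicotine libraries share 1 gene list, while 7 of the 9 others were counted on other lists.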
